A study of Rattus norvegicus with 9 samples.

Results

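The calyceal junction is the contact between a type I hair cell (HC) of the vestibular epithelium and the cup-shaped afferent ending, the calyx, that wraps around it. The genes described here encode adhesion proteins, matrix and membrane scaffolds of this junction and of the specialised domains of myelinated axons. They were 8 symbols chosen by name (Cntnap1, Cntn1, Cntnap2, Nfasc, Nrcam, Tnc, Ank3 and Sptbn4), and 7 of them were found among the 32883 genes of the table. Cntnap2, which encodes the CASPR2 protein of the juxtaparanode, was not analysed here. Male Long-Evans rats were exposed to IDPN (3,3'-iminodipropionitrile), an ototoxic nitrile, at 20 mM in the drinking water for 3 weeks (IDPN-3wk) or 7 weeks (IDPN-7wk), and control rats drank plain water. Per the study's methods the control group joined animals killed at both times, and the age of these rats is not given in the sources used here. Each of the 9 libraries, 3 per group, came from the 2 utricles and 6 cristae of 1 rat, and all libraries carried the same batch date in the labels. Replicates are numbered in the order of the sample list, and equal numbers by themselves do not pair rats. The sample titles begin with a code that is shared by the 3 controls, by replicates 2 and 3 within each exposed group, and by IDPN-3wk replicate 1 with IDPN-7wk replicate 1. Its meaning is not given in the sources used here, and since no exposed rat shares the code of the controls, whatever it marks and the exposure cannot be told apart in the comparisons with control.

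At the paranode of a myelinated axon, the CASPR1 protein and contactin-1 form a complex on the axon that meets a glial form of neurofascin. In the vestibular epithelium CASPR1 also marks the calyx membrane where it faces the type I HC, and tenascin-C lies in the matrix around the calyx. Ankyrin-G and beta-IV spectrin hold channels and L1 family adhesion proteins in place at axon initial segments and nodes. The cell bodies of the afferent neurons lie in the vestibular ganglion and not in the epithelium.

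Control replicates 1, 2 and 3 held 38023198, 32251682 and 38044824 counts in total. The totals at 3 weeks were 37640956, 31100118 and 32696268 counts and those at 7 weeks 46007687, 46018385 and 37275081 counts. Levels are given as CPM, counts scaled to library size with TMM factors, and a floor of 3 counts corresponded to 0.0611 to 0.101 CPM. This floor covers counting error only, since reads amplified by PCR without molecular identifiers are not independent molecules. After thinning to the smallest library, fewer genes were detected in control replicate 3 (15464), IDPN-3wk replicate 1 (15498) and IDPN-3wk replicate 2 (15387) than in the remaining 6 libraries (16834 to 17312). Controls and IDPN-3wk rats occur on both sides of this split, and differences of mean log2(CPM + 2) are therefore also given on each side, with no test.

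The labelled tissue was checked by its defining markers. Of the HC markers, Myo7a had 122 to 193 CPM and Otof 293 to 772 CPM over the 9 libraries. The supporting cell gene Otog had 2480 to 8550 CPM. Of the afferent neurite markers, Nefl had 29.4 to 42.4 CPM and Nefh 0.108 to 2.86 CPM, while Stmn2 had 0 to 0.985 CPM, with 0 counts in IDPN-3wk replicates 1 and 2 and IDPN-7wk replicate 1. The myelin genes Mbp and Pmp22 had 485 to 2340 CPM and 535 to 2330 CPM.

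**Figure D1:**
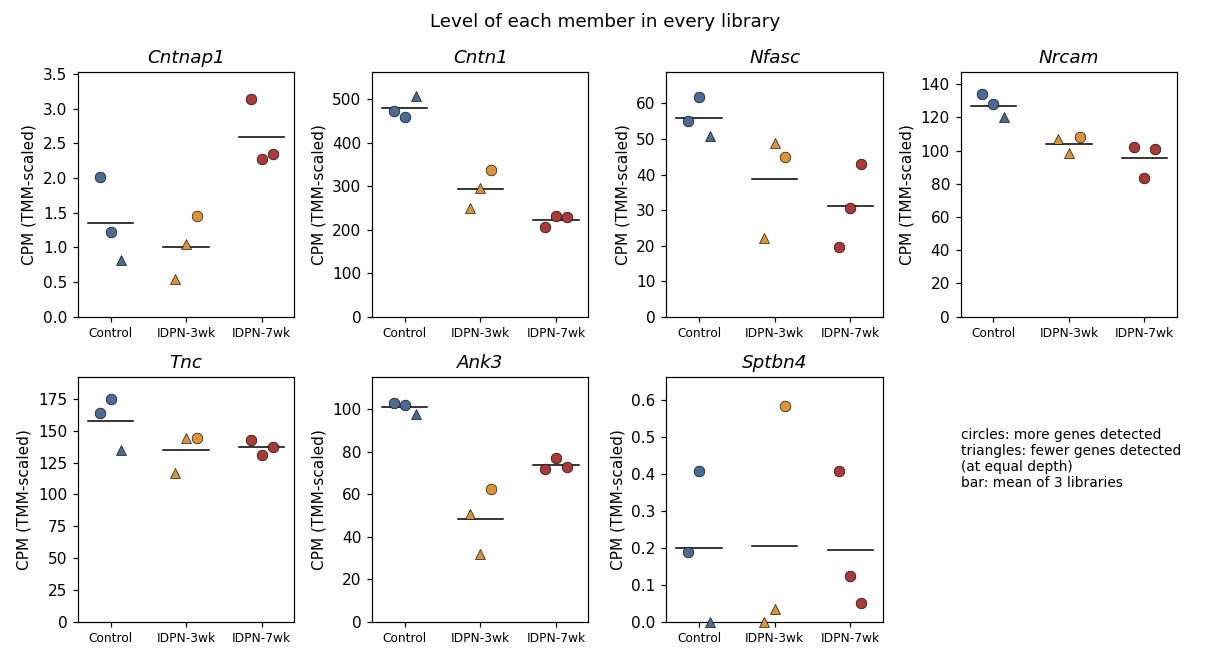
Level of each of the 7 members found, in CPM after TMM scaling, in the 3 libraries of each group, with triangles for the 3 libraries with fewer detected genes and a bar for the mean. Cntn1, Nfasc, Nrcam and Ank3 had all exposed libraries below all controls, and Sptbn4 lay near the floor in every group.

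All genes kept by the filter on low counts (15517 genes, with all 7 members among them) were tested together with edgeR. A gene was called when its adjusted p was under 0.05 and its fold change above 1.5, and values are log2 fold changes with their SE. At 3 weeks, 2 of 7 members were called against the controls (Cntn1 and Ank3), both lower. Over all genes 1.65% were called, 1.21% lower and 0.438% higher. At 7 weeks, 1 of 7 members (Cntn1) was called, lower, while 5.13% of all genes were called, 3.13% lower and 2.00% higher. Between the exposed groups 0 of 7 members were called by edgeR or by DESeq2, and 2 (Cntn1 and Ank3) had an unadjusted p under 0.05 with edgeR. Of all genes, 0.483% were called there, 0.135% lower and 0.348% higher in IDPN-7wk rats. Of all 15517 genes, 2145 had an unadjusted p of 0.0501 or lower there by edgeR. At 3 weeks 2467 genes had one of 0.0509 or lower, and at 7 weeks 3017 genes one of 0.0512 or lower. Counts of list genes at an unadjusted p under 0.05 are to be read beside these. The median log2 fold change of the members was -0.42 at 3 weeks, -0.41 at 7 weeks and -0.08 between the exposed groups, beside 0.00, 0.01 and 0.01 over all genes tested. With 7 members each median is the value of 1 gene. These genes were Cntnap1 at 3 weeks, Nrcam at 7 weeks and, between the exposed groups, Sptbn4, which lay near the floor. The comparisons with control share the same 3 control rats, so their values are given side by side. In RNA from whole epithelium, fewer cells of a type and less RNA per cell cannot be told apart.

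Cntn1 (ENSRNOG00000004438) encodes contactin-1, the membrane-anchored partner that carries CASPR1 to the axon surface. The controls had 473, 459 and 506 CPM, the IDPN-3wk rats 250, 296 and 336 CPM, and the IDPN-7wk rats 207, 231 and 228 CPM. All 6 exposed rats lay below all controls, and the IDPN-7wk rats lay below the IDPN-3wk rats. The means were 479 ± 24.5, 294 ± 42.9 and 222 ± 13.1 CPM (SD, n = 3 each). Cntn1 was downregulated at 3 weeks (log2 fold change -0.71, SE 0.111, adjusted p = 0.0128 by edgeR) and at 7 weeks (-1.11, SE 0.111, adjusted p = 0.000457). Between the exposed groups the log2 fold change was -0.40 (95% interval -0.65 to -0.16, adjusted p = 0.165), so a further fall from 3 to 7 weeks did not pass the test. Over all 18 alternatives, by edgeR or DESeq2, this value ran from -0.60 to -0.30. Its lowest adjusted p there was 0.0196, and it was called in none of them. The IDPN-3wk rats differed from the controls by -0.89 in mean log2(CPM + 2) where fewer genes were detected, and by -0.47 in the other libraries. The call at 3 weeks was lost without control replicate 1 (adjusted p = 0.0613) or control replicate 2 (0.0501), and without the 3 libraries with fewer detected genes, chosen after the data were seen (-0.47, adjusted p = 0.127). Over all alternatives its adjusted p ran from 4.91e-07 to 0.127. The Pearson r of its log2 level over the 9 libraries was 0.97 with the paranode and juxtaparanode partners and 0.94 with the HC and with the supporting cell markers, described as lists further on. After the group means were removed these were 0.54, -0.50 and 0.33, and the highest r was 0.79, with the tenascin-C ligands and receptors. Without the 2 exposed libraries that share a title code, left out after the data were seen, these values within groups were 0.00, -0.61, -0.61 and 0.57 over 7 libraries, so that with the supporting cell markers changed sign. In every r with a list, the list entered as the log2 of its summed CPM plus 2, so its abundant genes weighed most. Among the paranode and juxtaparanode partners, Adam11 had means of 684, 146 and 103 CPM in control, IDPN-3wk and IDPN-7wk rats, and Prnp 599, 605 and 571 CPM. Among the HC markers, Spp1 had 5180, 2990 and 1500 CPM.

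Cntnap1 (ENSRNOG00000020277) encodes CASPR1 itself. It was read by few counts, with 75, 39 and 29 counts in the controls, 20, 31 and 47 in the IDPN-3wk rats and 154, 111 and 93 in the IDPN-7wk rats. In CPM these were 2.02, 1.22 and 0.816 in the controls, 0.545, 1.04 and 1.45 at 3 weeks, and 3.14, 2.28 and 2.35 at 7 weeks. The IDPN-7wk rats lay above all other rats, and the controls and IDPN-3wk rats overlapped. The log2 fold change was -0.42 at 3 weeks (95% interval -1.82 to 0.97, adjusted p = 0.804 by edgeR) and 0.94 at 7 weeks (-0.46 to 2.33, adjusted p = 0.485). Between the exposed groups it was 1.36 (-0.05 to 2.76, adjusted p = 0.382), so none of these differences passed the test. The value at 3 weeks was -0.12 without IDPN-3wk replicate 1, -0.01 without control replicate 1, -0.68 without control replicate 3 and -0.77 without IDPN-3wk replicate 3. In mean log2(CPM + 2), the IDPN-3wk rats differed from the controls by -0.02 and -0.06 where fewer and more genes were detected. At these low levels the added 2 shrinks such differences. The log2 fold change between the exposed groups was 0.80 with a covariate for the libraries with fewer detected genes and 0.84 without them. In the RefSeq annotation of the GRCr8 assembly Cntnap1 overlaps Ccr10, a chemokine receptor gene with 24 to 81 counts per library. The counts were made with another assembly and annotation. The paper gives default parameters of RSEM for the counting and names no strand, and SMARTseq2 libraries do not mark it. Reads from where these genes overlap are therefore uncertain.

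The genes whose levels followed Cntnap1 most closely over the 9 libraries were Spty2d1, Gpr183 and Ms4a6a, with Pearson r of 0.955, 0.951 and 0.948 of log2(CPM + 2). For Cntn1 they were Crispld2, Astn1 and Meltf (0.992, 0.988 and 0.984), and for Ank3 they included RGD1309730 and Cfap69 (0.985 and 0.973). The libraries are shared by all these values, and the r describe them without a test. Among the members, the r with Cntnap1 was highest for Sptbn4 (0.36) and was -0.45 for its partner Cntn1. The macrophage markers Cd68, Csf1r and Aif1 also had each IDPN-7wk rat above all other rats, while the last, Cx3cr1, overlapped, and none of the 4 was called by edgeR. Of all genes, 34.3% did not overlap between IDPN-7wk and control rats, and 21.0% between the exposed groups. At 7 weeks against control, Cd68, Csf1r and Aif1 stayed uncalled in 15, 17 and 12 of 18 alternatives. Between the exposed groups they stayed uncalled in 17, 17 and 15. At 7 weeks the log2 fold changes of Cd68 and Aif1 were both 1.56 (adjusted p = 0.263 and 0.0613 by edgeR) and that of Csf1r was 0.88 (0.365). DESeq2 called Aif1 there (adjusted p = 0.00703), and edgeR called Cd68 and Aif1 in a fit of the 6 libraries compared (0.00364 and 0.00447) and without IDPN-3wk replicate 1 (0.0243 and 0.0291), and Aif1 also without IDPN-3wk replicate 2 (0.00595). Without the libraries with fewer detected genes edgeR called Cd68, Csf1r and Aif1 at 7 weeks (adjusted p = 0.00180, 0.0248 and 0.00432), and Cd68 and Aif1 between the exposed groups (0.0422 and 0.0498). Without IDPN-3wk replicate 2 it called Csf1r and Aif1 between the exposed groups (adjusted p = 0.0225 and 0.0185), and DESeq2 called Aif1 there (0.0293). Csf1r, a receptor of macrophage growth factors, had 42.4, 26.2 and 62.5 CPM in the controls, 12.8, 46.1 and 13.3 CPM at 3 weeks and 101, 69.5 and 70.6 CPM at 7 weeks. The part of macrophages in the Cntnap1 values was not tested.

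Nfasc (ENSRNOG00000030515) encodes neurofascin, with a glial form at the paranode and neuronal forms at the node and initial segment, and gene counts cannot separate these forms. The controls had 55.1, 61.7 and 50.9 CPM, the IDPN-3wk rats 22.0, 49.0 and 44.9 CPM, and the IDPN-7wk rats 19.7, 30.6 and 43.0 CPM. The exposed rats lay below the controls, with 1 low library in each exposed group and the 2 exposed groups overlapping. The log2 fold change was -0.53 at 3 weeks (95% interval -1.25 to 0.18, adjusted p = 0.458 by edgeR) and -0.85 at 7 weeks (-1.56 to -0.13, adjusted p = 0.180), and neither passed the test. At 3 weeks it was -0.25 without IDPN-3wk replicate 1, and between the exposed groups it ran from -0.62 without IDPN-7wk replicate 3 to -0.07 without IDPN-7wk replicate 1. The IDPN-3wk and control rats differed by -0.59 in mean log2(CPM + 2) among the libraries with fewer detected genes and by -0.36 among the others. The summed level of the Schwann cell and myelin markers was 14700, 17200 and 15600 CPM in the controls, 12400, 15200 and 15600 CPM at 3 weeks and 6700, 10800 and 11000 CPM at 7 weeks. The lowest library of each exposed group was the same for Nfasc and for these markers, and these 2 libraries are the ones whose titles share a code. The Pearson r of the log2 levels was 0.83 over the 9 libraries and 0.84 after the group means were removed, a pair picked from 63 pairs of a member and a list after the values were seen. Without the 2 libraries that share a code, left out after the data were seen, r was 0.83 over 7 libraries and 0.42 after the group means were removed. Without them Nfasc differed from the controls by -0.24 at 3 weeks and -0.59 at 7 weeks in mean log2(CPM + 2). For Nfasc the r was also 0.86 with the tenascin-C ligands and receptors and 0.79 with the paranode and juxtaparanode partners (0.78 for both after the group means were removed). After the group means were removed it was 0.78 with the markers of other cells and 0.72 with the relatives of the members too. Without the 2 libraries these values within groups were -0.97, 0.49, -0.49 and 0.21, in the same order of lists. The highest r of Nfasc without them was with the afferent neurite markers, 0.92 and, within groups, 0.80 (0.72 and 0.30 over the 9 libraries). The part of the glia, of the afferents and of what the code marks in the Nfasc values was not tested.

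**Figure D2:**
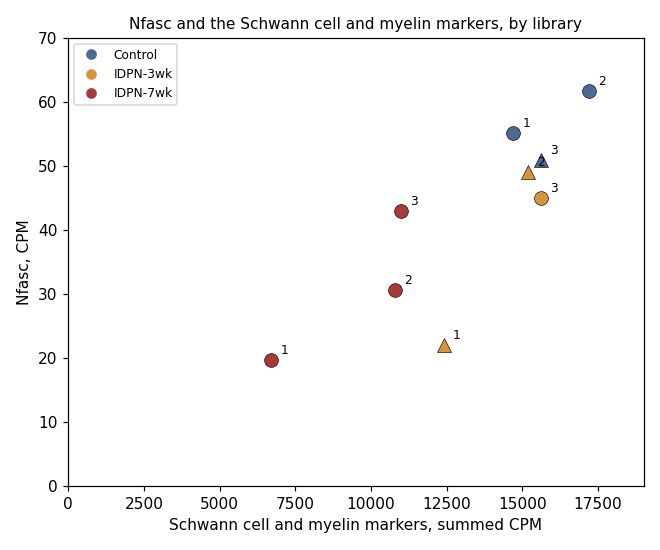
Nfasc, in CPM, against the summed CPM of the Schwann cell and myelin markers in each of the 9 libraries, with replicate numbers beside the points and triangles for the libraries with fewer detected genes. IDPN-7wk replicate 1 had the lowest values of both, 19.7 and 6700 CPM.

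Nrcam (ENSRNOG00000004067) encodes a neuronal adhesion protein of the same L1 family, found at nodes. Its levels were 134, 128 and 120 CPM in the controls, 107, 98.4 and 108 CPM at 3 weeks and 102, 83.7 and 101 CPM at 7 weeks. All exposed rats lay below all controls, and the exposed groups overlapped. The log2 fold change was -0.29 at 3 weeks (SE 0.104, adjusted p = 0.216 by edgeR). At 7 weeks it was -0.41 (SE 0.104, adjusted p = 0.0448), past the p threshold but below the fold change required. Over the alternatives its adjusted p at 7 weeks rose as far as 0.158, so the p threshold was not passed in all of them.

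Tnc (ENSRNOG00000058645) encodes tenascin-C, a matrix glycoprotein. The controls had 164, 175 and 135 CPM, the IDPN-3wk rats 117, 144 and 144 CPM, and the IDPN-7wk rats 143, 131 and 137 CPM. The 3 groups overlapped. The log2 fold change was -0.23 at 3 weeks (95% interval -0.50 to 0.04, adjusted p = 0.404 by edgeR) and -0.21 at 7 weeks (-0.48 to 0.07, adjusted p = 0.414), and neither passed the test. Of 20 tested genes for ligands and receptors of tenascin-C, 1 was called lower at 3 weeks, and 2 were called lower and 1 higher at 7 weeks, with list medians of 0.04 and -0.01. Ptprz1, a receptor phosphatase that binds both contactin-1 and tenascins, had 295, 296 and 288 CPM in the controls, 129, 127 and 124 CPM at 3 weeks and 184, 125 and 155 CPM at 7 weeks. Every exposed rat lay far below the controls, with log2 fold changes of -1.21 (SE 0.126, adjusted p = 0.00183 by edgeR) and -0.92 (SE 0.125, adjusted p = 0.00231). HC markers were lower in the same comparisons (medians -0.77 and -1.29), and the part of HCs in the Ptprz1 values was not tested. Acan, the proteoglycan aggrecan, fell at 7 weeks by 3.07 on the log2 scale (SE 0.319, adjusted p = 0.000543 by edgeR), from 27.1 ± 7.54 to 3.23 ± 1.09 CPM (SD, n = 3). Sdc1, a cell surface proteoglycan, was higher at 7 weeks (1.56, SE 0.375, adjusted p = 0.0370 by edgeR), and this call was lost without control replicates 1 or 2 or any IDPN-7wk replicate (adjusted p from 0.0857 to 0.129).

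Ank3 (ENSRNOG00000053288) encodes ankyrin-G, the adaptor that anchors L1 family proteins and sodium channels to the membrane skeleton. The controls had 103, 102 and 97.7 CPM, the IDPN-3wk rats 50.7, 31.8 and 62.5 CPM, and the IDPN-7wk rats 71.8, 77.2 and 72.6 CPM. The groups did not overlap, and the IDPN-3wk rats, with the widest spread, were lowest while the IDPN-7wk rats lay in between. The means were 101 ± 2.8, 48.3 ± 15.5 and 73.9 ± 2.91 CPM (SD, n = 3 each). Ank3 was downregulated at 3 weeks (log2 fold change -1.06, SE 0.200, adjusted p = 0.0284 by edgeR), and at 7 weeks the value was -0.45 (SE 0.198, adjusted p = 0.248). The difference between the exposed groups, 0.61 (95% interval 0.17 to 1.05), had an adjusted p of 0.216. Within the sets of libraries, the IDPN-3wk and control rats differed by -1.24 and -0.70 in mean log2(CPM + 2), with fewer and more genes detected. Ank3 was no longer called at 3 weeks without control replicates 1, 2 or 3 (adjusted p = 0.103, 0.100 and 0.0691), IDPN-3wk replicate 1 (0.0637) or IDPN-7wk replicates 2 or 3 (0.0526 and 0.0597), which enter the shared spread, and with only the 6 libraries compared (0.0979). Without IDPN-3wk replicate 3 the exposed groups differed past the threshold (0.84, adjusted p = 0.0469 by edgeR), while without IDPN-3wk replicate 2 the difference was 0.38 (0.292) and without the libraries with fewer detected genes 0.24 (0.517). The adjusted p of the call at 3 weeks ran from 3.91e-05 to 0.103 over all alternatives.

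Sptbn4 (ENSRNOG00000055371) encodes beta-IV spectrin, the membrane skeleton protein that ankyrin-G binds. It had 7, 13 and 0 counts in the controls, 0, 1 and 19 at 3 weeks and 20, 6 and 2 at 7 weeks. No group stood apart, 4 of the 9 libraries were at or below 3 counts, and a difference was not detectable at this depth.

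**Figure D3:**
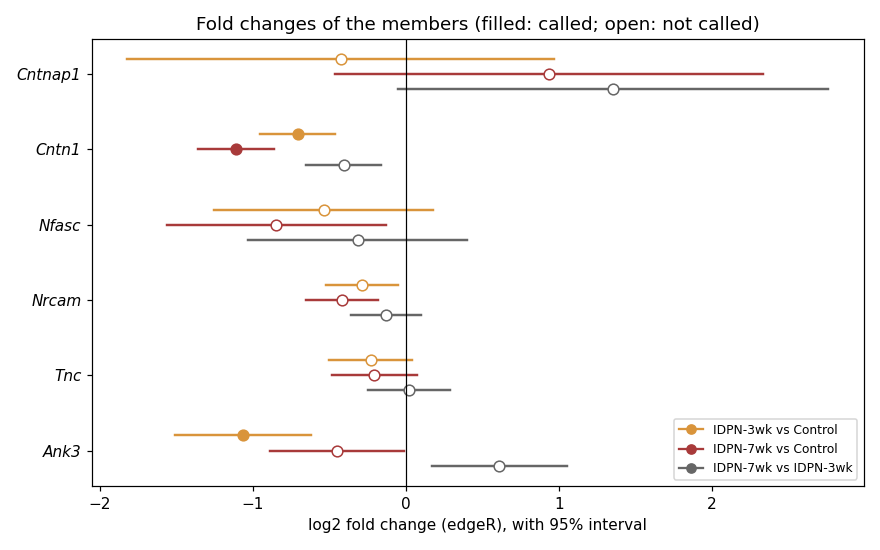
Log2 fold changes of 6 members by edgeR with 95% intervals, for IDPN-3wk against control, IDPN-7wk against control and IDPN-7wk against IDPN-3wk, filled where called. Cntn1 was called at both times, at -0.71 and -1.11, and Ank3 at 3 weeks, at -1.06, while the interval of Cntnap1 was the widest.

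At 3 weeks 4 of 7 members had exposed and control rats that did not overlap, beside 19.6% of all genes, and at 7 weeks 5 of 7 did, beside 34.3%. Between the exposed groups 3 of 7 members (Cntnap1, Cntn1 and Ank3) did not overlap, beside 21.0% of all genes. Among the members that overlapped there, the log2 fold changes of Nfasc, Nrcam and Tnc were -0.31, -0.13 and 0.02 (adjusted p = 0.731, 0.642 and 0.967 by edgeR). The IDPN-7wk library that shares a title code with an IDPN-3wk library differed from it by 1.01 for Cntnap1, -0.27 for Cntn1, -0.15 for Nfasc and 0.48 for Ank3 in log2(CPM + 2). For the means of the other exposed libraries these differences were 0.42, -0.45, -0.35 and 0.72. Cntnap1 lay at 0.545 to 3.14 CPM, so the added 2 shrinks its differences more than those of Cntn1, Nfasc and Ank3.

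Promoters are shown for Cntn1 and Ank3, the members called lower, as the 250 bases before to 50 after the start of the gene in RefSeq, build GRCr8. Entries were found for 5 of the 8 members (Cntn1, Nfasc, Tnc, Ank3 and Sptbn4), and those of Cntnap1, Nrcam and Cntnap2 were not used here. Both strands were searched for TGANTCA (an AP-1 site), TGACGTCA (a cyclic AMP response element), GGGCGG (a GC box), CAGCTG (an E-box) and TATAAA (a core promoter element). These were present in 7.33%, 1.83%, 33.1%, 15.1% and 14.2% of 33469 promoters of the same length. The Cntn1 window (chr7:125252060-125252359, + strand) held 1 TGANTCA, in capitals, and the Ank3 window (chr20:18929128-18929427, - strand) held none of the 5. A match only describes the letters.
Cntn1: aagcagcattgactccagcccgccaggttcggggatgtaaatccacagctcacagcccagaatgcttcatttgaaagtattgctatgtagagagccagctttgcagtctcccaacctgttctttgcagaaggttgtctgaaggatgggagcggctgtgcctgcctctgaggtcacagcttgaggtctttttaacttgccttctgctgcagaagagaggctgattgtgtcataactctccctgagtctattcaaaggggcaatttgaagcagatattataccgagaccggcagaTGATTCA
Ank3: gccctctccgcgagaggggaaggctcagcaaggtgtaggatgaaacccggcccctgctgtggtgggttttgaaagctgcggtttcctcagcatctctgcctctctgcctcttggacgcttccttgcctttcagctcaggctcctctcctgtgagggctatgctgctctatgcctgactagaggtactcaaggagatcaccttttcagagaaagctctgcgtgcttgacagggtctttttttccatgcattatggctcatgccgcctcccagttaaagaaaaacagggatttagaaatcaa

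Partners of the members were examined by lists. Of 29 partners at the paranode and juxtaparanode, where potassium channels are held beside the CASPR complex, 4 were called lower at 3 weeks and 7 at 7 weeks, and 0 were called higher, by edgeR, while DESeq2 called 7 and 10. The list medians were -0.15 and -0.31. Adam11, a membrane protein that places potassium channels at axon terminals of the cerebellum, had 634, 818 and 601 CPM in the controls, 147, 156 and 135 CPM at 3 weeks and 83.6, 113 and 113 CPM at 7 weeks. The 3 groups did not overlap, and the log2 fold changes were -2.23 (SE 0.154, adjusted p = 0.000242 by edgeR) and -2.73 (SE 0.157, adjusted p = 2.58e-05). Kcna10, a potassium channel of HCs, gave -1.21 at 3 weeks (SE 0.101, adjusted p = 0.000758 by edgeR) and -1.58 at 7 weeks (SE 0.102, adjusted p = 3.32e-05). Kcnab1, a potassium channel beta subunit, fell from 116 CPM in the controls to 13.3 CPM at 3 weeks and 12.5 CPM at 7 weeks (means of 3 rats, log2 fold changes -3.12 and -3.21). Adam11, Kcna10 and Kcnab1 are also known as genes of HCs, so the list does not hold paranode and juxtaparanode genes only. The paper names all of them among genes downregulated in each of its comparisons, which include these libraries, so their lower levels were known beforehand. HC markers moved in the same comparisons (medians -0.77 and -1.29), and the part of HCs in these calls was not tested. The last gene called at 3 weeks was Pik3r1, a regulatory subunit of PI3 kinase named after its value was seen (-1.25, adjusted p = 0.0252 by edgeR). Its call was lost without any control replicate, IDPN-3wk replicate 1 or IDPN-7wk replicate 3 (adjusted p from 0.0520 to 0.103) and with only the 6 libraries compared (0.0888). At 7 weeks Pik3r1 was called at -0.94 (adjusted p = 0.0379 by edgeR), and lost this call without any control or IDPN-7wk replicate (from 0.0689 to 0.133) and with a fold change above 2. Kcna1 and Kcna2, the channels of the juxtaparanode and named after their values were seen, were called at 7 weeks (-1.26 and -1.33, adjusted p = 0.0218 and 0.0128 by edgeR). IDPN-7wk replicates 1, 2 and 3 had 26.5, 59 and 62.2 CPM of Kcna1 and 34.2, 68 and 62.4 CPM of Kcna2. The summed Schwann cell and myelin markers were also lowest in IDPN-7wk replicate 1 (6700 CPM), and their part in these calls was not tested. The call of Kcna1 was lost without any control replicate (adjusted p from 0.0503 to 0.0721) and without the libraries with fewer detected genes (0.0955), and that of Kcna2 without control replicate 2 (0.0520). The last gene called at 7 weeks was Cadm2, a cell adhesion molecule also named after its value was seen, with 7.69, 8.55 and 10.6 CPM in the controls, 2.53, 0.101 and 1.48 CPM at 3 weeks and 0.163, 0.247 and 0.304 CPM at 7 weeks. Its log2 fold change was -5.22 at 7 weeks (SE 0.929, adjusted p = 0.0092 by edgeR), a call lost without IDPN-7wk replicate 1 (0.0544). At 3 weeks it was -2.70 (adjusted p = 0.14 by edgeR, 0.0139 by DESeq2).

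Of 23 tested partners at the node and initial segment, among them sodium channels and ezrin family linkers, 0 were called at 3 or 7 weeks by edgeR, and DESeq2 called 1 at each time. At an unadjusted p under 0.05 there were 2 and 5 of these 23 genes. Beside them, 2467 and 3017 of all 15517 genes had an unadjusted p of 0.0509 and 0.0512 or lower by edgeR. The list medians were 0.01 and 0.03. Of 13 tested relatives of the members, edgeR called 0 at 3 weeks (4 at an unadjusted p under 0.05, 1 by DESeq2) and 2 at 7 weeks. At 7 weeks 8 relatives had an unadjusted p under 0.05, 5 lower and 3 higher. The called genes were Chl1, an L1 family protein, at -0.61 (SE 0.150, adjusted p = 0.0412 by edgeR) and Cntn3, a contactin, at -2.22 (SE 0.518, adjusted p = 0.0329). The call of Chl1 was lost without any control replicate, IDPN-3wk replicate 3 or any IDPN-7wk replicate (adjusted p from 0.0523 to 0.150) and with a fold change above 2. That of Cntn3 was lost without control replicates 1 or 3 or any IDPN-7wk replicate (from 0.0680 to 0.144). With single libraries left out, 0 to 4 relatives were called at 7 weeks. The list medians of the relatives were -0.20 and -0.09.

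**Figure D4:**
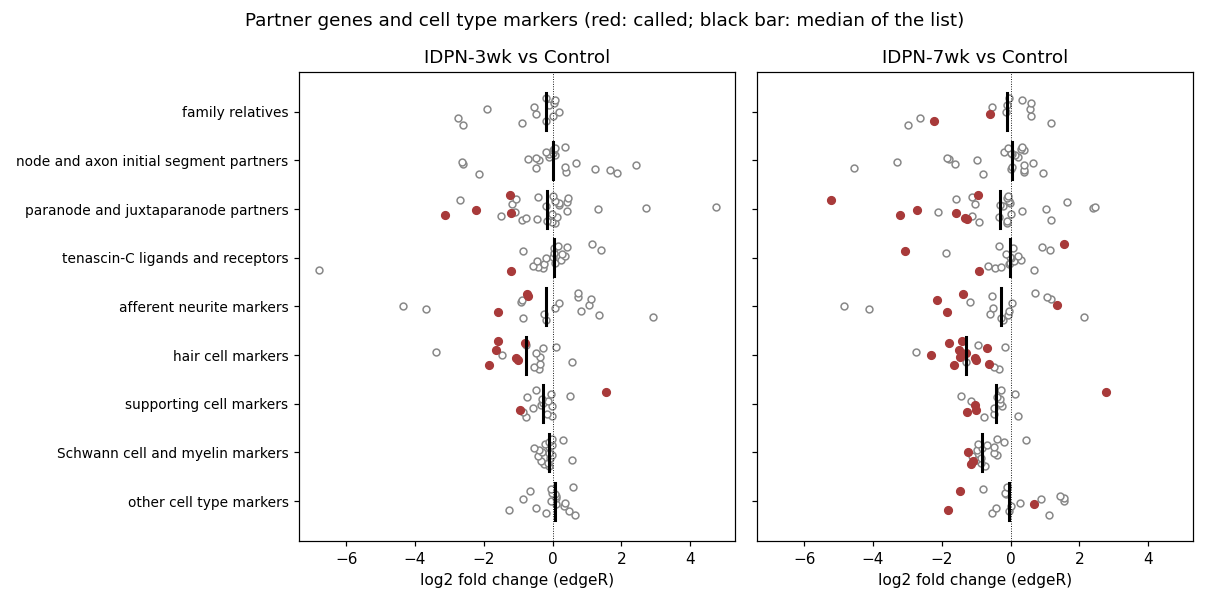
Log2 fold changes by edgeR of the tested genes of each list at 3 and 7 weeks against control, red where called, with a black bar at the list median. HC markers had the lowest medians, -0.77 and -1.29, and the node and initial segment partners had no called gene.

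Of 17 HC markers, 6 were called lower at 3 weeks and 11 at 7 weeks and 0 higher, with medians of -0.77 and -1.29. Their summed level, led by Spp1, was 8170, 8220 and 8560 CPM in the controls, 5000, 4970 and 4090 CPM at 3 weeks and 2930, 3110 and 3180 CPM at 7 weeks. Ptprq, a phosphatase of the hair bundle, was called at both times (-1.63 and -1.49, adjusted p = 0.00140 and 0.000611 by edgeR). So were Myo15a, a motor protein (-1.85 and -1.65), Otof, for otoferlin of the ribbon synapse (-0.99 at 3 weeks), and Spp1, for osteopontin (-0.79 and -1.79). Of 19 tested afferent neurite markers, 3 were called lower at 3 weeks, and 3 lower and 1 higher at 7 weeks, with medians of -0.20 and -0.27. Their summed level, led by Map1b, was 600, 651 and 588 CPM in the controls, 462, 526 and 454 CPM at 3 weeks and 449, 406 and 446 CPM at 7 weeks. Snap25, a synaptic fusion protein, was called at both times (-1.58 and -1.85, adjusted p = 0.0147 and 0.00259 by edgeR), while Uchl1 was higher at 7 weeks (1.36, adjusted p = 0.0104). The other called genes were Syt1 (-2.13 at 7 weeks), Isl1 (-0.72 at 3 weeks) and the neurotrophin receptor Ntrk2 (-0.76 and -1.39). Of the defining markers, Nefl, Nefm, Nefh, Tubb3 and Stmn2 were not called at either time. Their log2 fold changes, in this order, were -0.20, -0.85, 2.94, 0.83 and -3.67 at 3 weeks. At 7 weeks they were -0.20, -0.27, 2.13, -0.04 and -4.12. HC markers were lower in the same comparisons, and the part of HCs in the calls of this list was not tested. At 3 weeks the call of Snap25 was lost without control replicate 2 (adjusted p = 0.0643 by edgeR) and with only the 6 libraries compared (0.0592). That of Isl1 was lost without any control replicate or IDPN-3wk replicates 1 or 2 (from 0.0521 to 0.102) and without the libraries with fewer detected genes (0.145). That of Ntrk2 at 3 weeks was lost without any control or IDPN-7wk replicate or IDPN-3wk replicates 1 or 3 (from 0.0661 to 0.129), with only the 6 libraries compared (0.101), with the covariate (0.0577), with a fold change above 2 and without the libraries with fewer detected genes (0.0518). The count of afferent neurite markers called at 3 weeks was thus 0 without control replicate 2 and 1 without control replicates 1 or 3 or IDPN-3wk replicate 1, while DESeq2 called 7, 4 lower and 3 higher.

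Of 18 Schwann cell and myelin markers, edgeR called 0 at 3 weeks (1 at an unadjusted p under 0.05, 0 by DESeq2) and 3 lower at 7 weeks, with medians of -0.11 and -0.83. At 7 weeks 15 of the 18 had an unadjusted p under 0.05, 14 of them lower, and DESeq2 called 9, all lower. The exception was Erbb3, a neuregulin receptor of Schwann cells named after its value was seen, which had a log2 fold change of 0.44 (adjusted p = 0.0138 by edgeR), below the fold change required, with all exposed rats above the controls. The edgeR count at 7 weeks was 7 without IDPN-3wk replicate 1, 1 without control replicate 3 or IDPN-3wk replicate 3, and 0 without control replicates 1 or 2 or IDPN-7wk replicate 3. The called genes were Mbp, Pmp22 and Ncmap, at -1.15, -1.08 and -1.24. The call of Mbp was lost without any control replicate, IDPN-3wk replicate 3 or IDPN-7wk replicate 3 (adjusted p from 0.0502 to 0.121 by edgeR), with the covariate (0.052) and without the libraries with fewer detected genes (0.105). Pmp22 lost its call without any control replicate or replicates 2 or 3 of either exposed group (from 0.0521 to 0.135) or the libraries with fewer detected genes (0.0768), and Ncmap without control replicates 1 or 2 or IDPN-7wk replicate 3 (from 0.0645 to 0.0813).

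Of 16 supporting cell markers, led by Otog, 1 was called lower (Otogl, -0.94) and 1 higher (Ctgf, 1.54) at 3 weeks, with a median of -0.29. Without the libraries with fewer detected genes Ctgf was not called at 3 weeks (1.89, adjusted p = 0.0553 by edgeR). At 7 weeks Otog (-1.26), Otogl and Gjb6 (-1.03) were called lower and Ctgf (2.78) higher, with a median of -0.43. Their summed level was 15600, 15100 and 15600 CPM in the controls, 9980, 11800 and 10000 CPM at 3 weeks and 8680, 10200 and 9770 CPM at 7 weeks. Of 17 tested markers of other cells, led by Pmel, edgeR called 0 at 3 weeks (4 at an unadjusted p under 0.05, 2 by DESeq2), and 2 lower (Lum and Kcnq1) and 1 higher (Cdh5) at 7 weeks, with medians of 0.07 and -0.05. Their summed level was 1160, 1170 and 1190 CPM in the controls, 1210, 1400 and 1320 CPM at 3 weeks and 1060, 1240 and 1170 CPM at 7 weeks. With single libraries left out, 0 to 5 of these markers were called at 7 weeks. The calls of Lum (without control replicate 3 or any IDPN-7wk replicate), Kcnq1 (without replicates 1 or 3 of either the control or the IDPN-7wk group) and Cdh5 (without any 1 library except IDPN-3wk replicate 1) were lost, with adjusted p up to 0.0700, 0.106 and 0.185 by edgeR. Without the libraries with fewer detected genes Kcnq1 had an adjusted p of 0.0624 by edgeR and Cdh5 was below the fold change required (0.55), and Cdh5 also lost its call with the covariate (adjusted p = 0.0704) and with a fold change above 2. The Pearson r of the log2 level of Ank3 over the 9 libraries was 0.39 with the HC markers. It was 0.49 with the supporting cell and 0.39 with the afferent neurite markers. After the group means were removed these were -0.66, -0.65 and -0.73. Without the exposed libraries that share a title code, left out after the data were seen, these values within groups were -0.99, -0.93 and -0.73. The r of Ank3 over the 9 libraries was highest with the paranode and juxtaparanode partners (0.61) and the relatives of the members (0.59). Within groups these were 0.29 and -0.34. With the markers of other cells r was -0.66 and, within groups, -0.33, and without the libraries that share a code -0.91 and -0.65. The part of these cell types in the changes of Cntn1 and Ank3 was not tested.

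Between IDPN-7wk and IDPN-3wk rats, edgeR called 0 of 29 partners at the paranode and juxtaparanode (5 at an unadjusted p under 0.05, 2 by DESeq2), and their median was -0.29. It called 0 of 18 Schwann cell and myelin markers (12 and 5, median -0.67), 0 of 19 afferent neurite markers (4 and 3, median -0.28), 0 of 23 node partners (2 and 0, median -0.04), 0 of 13 relatives (4 and 1, median 0.12) and 0 of 17 markers of other cells (9 and 2, median -0.17). Called were 1 HC marker, 1 tenascin-C partner and 2 supporting cell markers, with medians of -0.16, 0.00 and -0.02.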

How the data were processed

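Per the labels and the study's methods, libraries were made by SMARTseq2 from 1 rat each. The authors mapped reads to the rat genome with STAR 2.5.3a and made the deposited estimated counts (expected counts) per gene with RSEM 1.3.0, versions taken from the submitters' processing notes. The paper's methods give another RSEM version, and a rat assembly and annotation other than GRCr8. The counts are whole numbers, and no scaling had been applied. Totals ran from 31100118 to 46018385 counts. Members were matched by symbol, ignoring case. No replicates of a group held the same counts (lowest chi-square per gene 18.7).

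From the counts, genes were kept by filterByExpr and scaled by TMM. Tests were the quasi-likelihood F test of edgeR 4.0.16, with robust priors, in R 4.3.3. All 9 libraries entered 1 fit with a mean per group, 6 residual degrees of freedom and 4.07 prior ones at the median. Adjusted p-values are Benjamini-Hochberg values over all genes tested in a comparison. An exact permutation test of 3 against 3 rats cannot go below a two-sided p of 0.1. Alternatives were RLE size factors, DESeq2 1.42.0, a looser filter, a stricter one (10 or more counts in each library), a fit of the 6 libraries compared, a fold change above 2 or no such threshold, a covariate for the libraries with fewer detected genes, each library left out in turn and, added after the data were seen, those with fewer detected genes left out together. The fit was tested on simulated data.

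Members and lists were chosen with earlier results of these data known. Named are the members, the list genes called (for lists with more than 6 called, the 3 with the smallest adjusted p per direction and comparison), the leading and defining markers, and the 3 genes most like Cntnap1 and each called member. Ccr10, Cadm2, Cx3cr1, Erbb3, Kcna1, Kcna2 and Pik3r1 were named outside this rule, and some genes within it are not reported here. Promoters and their motifs came from RefSeq, build GRCr8.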

Additional observations from a re-analysis of the deposited data

Results flagged for a closer look

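Of the genes named, 4 differed between IDPN-7wk and IDPN-3wk rats past the threshold of edgeR, and no member was among them. Spp1 was lower (-1.0, adjusted p = 0.00326), and this call was lost without the libraries with fewer detected genes (adjusted p = 0.0628) and with a fold change above 2. Acan was lower (-2.22, adjusted p = 0.0119 by edgeR), and lost its call without IDPN-7wk replicate 1 (0.0607) and with the covariate (0.057). Gjb6 was lower (-0.69, adjusted p = 0.0426 by edgeR), with the call lost without control replicate 1, IDPN-3wk replicates 1 or 2 or any IDPN-7wk replicate (from 0.0595 to 0.160). It was also lost in a fit of the 6 libraries compared (0.0598), with the covariate (0.253), with a fold change above 2 and without the libraries with fewer detected genes (0.082). Ctgf was higher (1.24, adjusted p = 0.0434 by edgeR), with the call lost without replicates 1 or 3 of the control or IDPN-7wk group or IDPN-3wk replicates 1 or 2 (from 0.0585 to 0.165). For Ctgf the fit of the 6 libraries (0.0744), the covariate (0.273) and the fit without the libraries with fewer detected genes (0.92, adjusted p = 0.39 by edgeR) also lost it. The cause of these differences was not tested.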

How the results depend on the processing

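At 7 weeks Cntn1 was called under all 18 alternatives, with log2 fold changes from -1.14 to -1.06, and without a fold change threshold 2 members were called, Nrcam being the other. At 3 weeks 1 member was called with only the 6 libraries compared (Cntn1), with a fold change above 2 (Ank3), and without the libraries with fewer detected genes (Ank3), which leaves 1 IDPN-3wk library, assumed to vary like the other groups. With each library left out in turn, 0 to 2 members were called at 3 weeks, 1 at 7 weeks and 0 to 1 between the exposed groups. The cause was not tested. Of 372 values of the 7 members, 347 kept their direction and side of the threshold and 12 changed sign, all of Sptbn4 or Tnc. Without single libraries Sptbn4 ran from -3.41 to 1.09 at 3 weeks, from -1.14 to 1.01 at 7 weeks and from -1.20 to 3.39 between the exposed groups. Sptbn4 had no value under the stricter filter or in fits of only 6 libraries. Between the exposed groups Tnc was -0.14 with the covariate and -0.08 without the libraries with fewer detected genes, and under these settings Otof was 0.04 and 0.25 and Otogl 0.01 and 0.08. Without those libraries Snap25 was 0.03 and Pik3r1 -0.10 there. Of 1992 values of 37 of the other genes named, 29 changed sign. At 3 weeks Aif1 was -0.08 with the covariate and, without the libraries with fewer detected genes, Aif1 was -0.51 and Cx3cr1 -2.29. Leaving out single libraries gave, at 3 weeks, -0.01 to 0.22 for Cdh5 -0.50 to 0.41 for Cntn3, -1.14 to 0.49 for Cd68, -0.63 to 0.38 for Aif1 and -2.73 to 0.68 for Cx3cr1. Between the exposed groups it gave -0.07 to 0.07 for Tnc, -0.45 to 0.13 for Kcnab1, -0.44 to 0.08 for Snap25, -0.13 to 0.07 for Otof, -0.03 to 0.11 for Myo7a and -0.13 to 0.04 for Otogl. Over all genes, edgeR called 256 at 3 weeks, 796 at 7 weeks and 75 between the exposed groups, and DESeq2 740, 1316 and 527. With only the 6 libraries compared these were 118, 1249 and 46, and a fold change above 2 left 159, 480 and 56. At 7 weeks 1563 were called without the libraries with fewer detected genes, and between the exposed groups 37 with the covariate and 123 with the stricter filter. Leaving out single libraries gave 75 to 439 called genes at 3 weeks, 432 to 969 at 7 weeks and 39 to 445 between the exposed groups. Low counts limit Sptbn4, and Cntnap1 was also read by few counts, with a spread between the controls of 45.4% (CV).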
